A study of Mus musculus with 6 samples.

Results

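The mRNAs of 10 genes of the circadian clock were described in cortical astrocytes of the mouse: Arntl (also called Bmal1), Clock, Per1, Per2, Per3, Cry1, Cry2, Nr1d1, Nr1d2 and Dbp. They were chosen by gene symbol. All 10 were found among the 43383 rows of the expression table, and all 10 were among the 13999 rows that passed a filter on low values. RNA came from male mice aged 4 weeks that carry the Aldh1l1-eGFP transgene, in which GFP is driven by the promoter of Aldh1l1, a gene of astrocytes. Somatosensory cortex was split into layers II–IV and layers V and VI, and the GFP-positive cells sorted from each are called upper-layer astrocytes (ULAs) and deep-layer astrocytes (DLAs). Each of 3 brains gave 1 ULA and 1 DLA library, so there were 3 libraries per layer. Both groups had the same age, sex and transgene, and neither was treated. Layer I, the meninges and the corpus callosum had been removed, and some tissue on either side of the boundary was lost, so the libraries do not cover the whole depth of the cortex. The labels state no time of day for the collection of the tissue and no light cycle.

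The circadian clock is a loop of transcription and translation that runs in most cells, astrocytes among them. ARNTL and CLOCK, or its relative NPAS2, bind E-box sequences and switch on the Per, Cry, Nr1d and Dbp genes. PER and CRY proteins then hold back ARNTL and CLOCK, while the NR1D receptors (REV-ERBs) repress Arntl through ROR elements, so that Arntl mRNA and Dbp mRNA peak at opposite times of day in many tissues.

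The depth of the libraries was 19.7 to 29.6 M reads of 36 bases. Values were RPKM, which divides the reads of an mRNA by the length of its exons and by the reads of the library, so that the levels of different genes can be set side by side. The labelled cell type was checked first. Aldh1l1 was at 203.27 to 271.06 RPKM, and the summed level of 10 astrocyte markers was 11301.54 to 12232.6 RPKM in ULAs and 10685.38 to 11506.82 RPKM in DLAs. The 9 markers of neurons summed to at most 12.76 RPKM in any library and 7 of endothelial cells to at most 3.12 RPKM. Markers of oligodendrocyte precursors summed to 85.35 to 96.79 RPKM in ULAs and 97.11 to 133.93 RPKM in DLAs. Those of microglia summed to 13.57 to 14.69 RPKM in ULAs and 9.0 to 12.08 RPKM in DLAs. Those of pericytes and smooth muscle summed to 16.08 to 23.12 RPKM in ULAs and 11.86 to 19.03 RPKM in DLAs. The 8 markers of oligodendrocytes summed to 89.85, 87.16 and 179.24 RPKM in ULAs (brains 1, 2 and 3, the order used throughout), and to 177.42, 203.77 and 282.05 RPKM in DLAs. They were thus higher in DLAs within each brain and highest in brain 3 within each layer. Markers of blood cells summed to at most 1.79 RPKM in ULAs and to 15.35, 16.02 and 76.71 RPKM in the DLAs of brains 1, 2 and 3. In bulk RNA, fewer cells of a type and less RNA per cell cannot be told apart.

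The clock genes spanned a wide range of levels. Averaged over the 6 libraries, Nr1d1 (138 RPKM) and Dbp (103 RPKM) were the highest, followed by Cry2 (42.1), Per3 (35.9), Arntl (26.7), Nr1d2 (11.6), Cry1 (9.60), Per2 (9.29), Clock (3.76) and Per1 (2.07 RPKM). Among the tested rows, Nr1d1 stood at the 96.6 percentile of the mean level and Per1 at the 15.0 percentile. Some neighbours in this order were not separated by their spread over the libraries. The ranges of Nr1d1 and Dbp overlapped, as did those of Cry2 and Per3, of Nr1d2 and Cry1, and of Cry1 and Per2, while the other neighbours had no values in common. A member was represented by between 196 reads (the lowest library of Per1) and 11484 reads (the highest library of Nr1d1), as estimated from RPKM, mRNA length and depth.

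**Figure D1:**
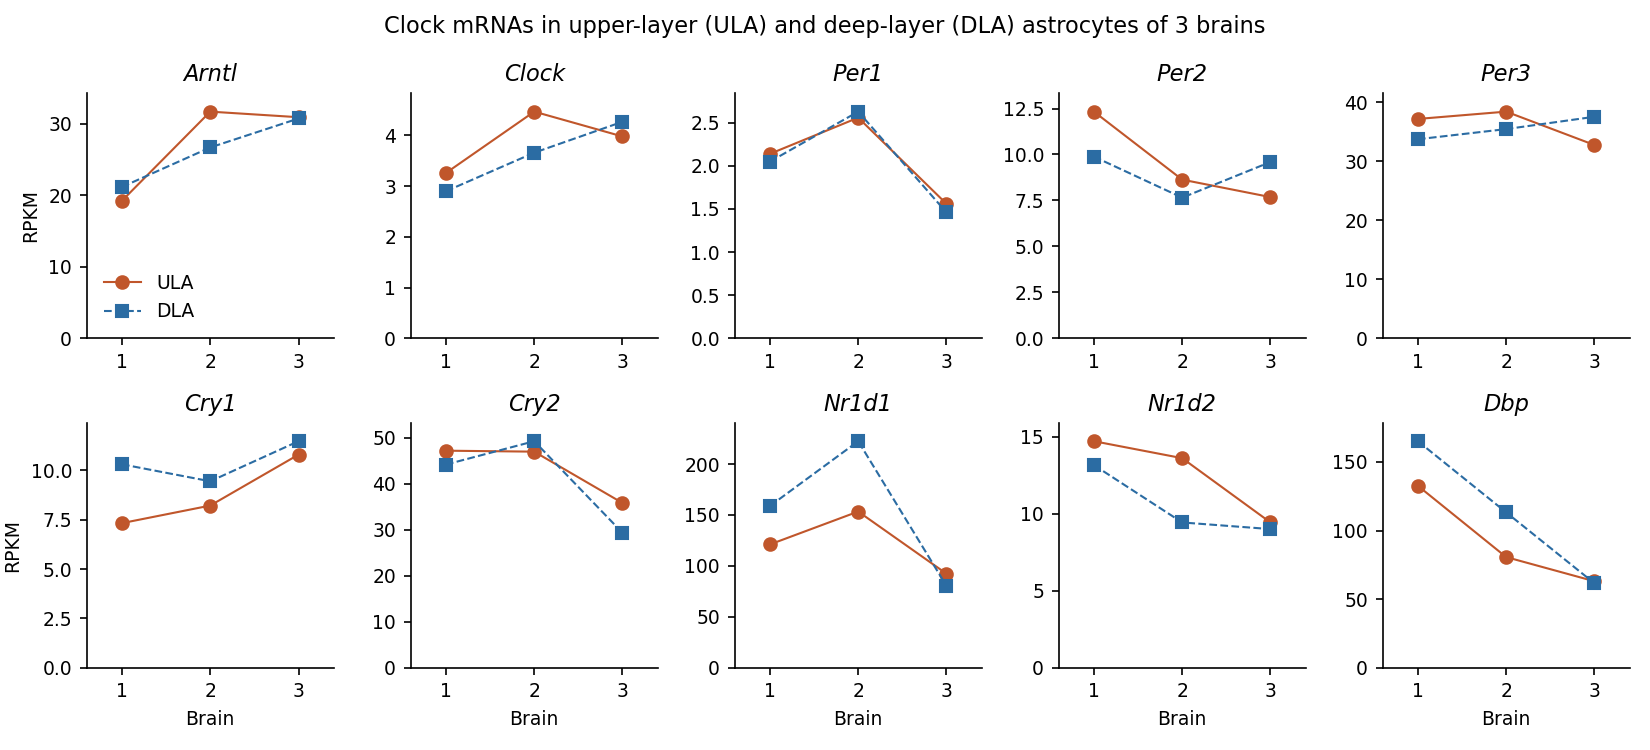
RPKM (y axis, from 0, own scale for each gene) of the 10 clock genes in brains 1, 2 and 3 (x axis), with ULAs as circles and DLAs as squares, 1 library per point and lines joining libraries of 1 layer. Dbp was at 132.56 RPKM in the ULAs of brain 1 and 63.05 RPKM in those of brain 3, and at 165.05 and 61.57 RPKM in the DLAs, whereas Per3 stayed between 32.77 and 38.43 RPKM.

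The first comparison was between the layers and asked whether ULAs and DLAs differ in clock mRNAs. None of the 10 clock genes passed the test. The fitted differences lay between −0.25 (Dbp) and 0.23 (Nr1d2) on the log2(RPKM + 1) scale, ULA minus DLA. The test was limma with brain and layer as terms, and a gene was called at a Benjamini-Hochberg adjusted p under 0.05. Of all rows tested, 1.63% were called, 100 higher and 128 lower in ULAs. At an unadjusted p under 0.05 the number of clock genes was also 0, where 16.4% of all rows were under it. The ranges of ULAs and DLAs overlapped for each of the 10 genes, whereas 15.9% of all rows had groups that did not overlap. Cry1 and Nr1d2 differed in the same direction in all 3 brains, so that 2 of 10 genes did so, against 38.4% of all rows. The median difference of the clock genes was 0.03, beside −0.03 for all rows, and their median absolute difference was 0.10, beside 0.14. Because 1 is added to each RPKM, the change of low genes such as Per1 and Clock is understated.

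Arntl, the partner of CLOCK without which the loop does not run, was at 19.22, 31.68 and 30.9 RPKM in ULAs and at 21.15, 26.67 and 30.72 RPKM in DLAs, in the order of brains 1, 2 and 3. Brain 1 was the lowest in both layers. ULA minus DLA was −0.13, 0.24 and 0.01 on the log2 scale in brains 1, 2 and 3. The mean was 27.3 ± 6.98 RPKM (SD, n = 3) in ULAs and 26.2 ± 4.80 RPKM in DLAs. The difference was 0.04 ± 0.11 (SE) with a 95% interval from −0.21 to 0.29 (adjusted p = 0.899). Clock, which encodes the other activator, was at 3.26, 4.47 and 3.98 RPKM in ULAs and at 2.90, 3.66 and 4.27 RPKM in DLAs. Its lowest library was again brain 1 in both layers. Its layer difference was 0.09 ± 0.14, with an interval from −0.22 to 0.40 (adjusted p = 0.792).

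The 3 Period genes encode the repressors that bind the cryptochromes. Per1, which also responds quickly to stimuli, was at 2.14, 2.56 and 1.56 RPKM in ULAs and at 2.05, 2.63 and 1.46 RPKM in DLAs. The 2 layers were nearly alike in each brain, with brain 2 the highest and brain 3 the lowest in both, and the difference was 0.02 ± 0.15 (interval −0.30 to 0.35). Per2 was at 12.33, 8.63 and 7.68 RPKM in ULAs and at 9.88, 7.65 and 9.59 RPKM in DLAs. It was higher in the ULAs of brains 1 and 2 and lower in those of brain 3, and the difference was 0.05 ± 0.14 (interval −0.26 to 0.37). Per3, the most abundant of the 3, was at 37.19, 38.43 and 32.77 RPKM in ULAs and at 33.75, 35.47 and 37.56 RPKM in DLAs. Its levels varied least among the clock genes, and its layer difference was 0.02 ± 0.11 (interval −0.23 to 0.26). The adjusted p-values of the 3 genes were 0.955, 0.887 and 0.952.

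The cryptochromes are the main repressors of ARNTL and CLOCK. Cry1 was at 7.33, 8.22 and 10.8 RPKM in ULAs and at 10.31, 9.45 and 11.48 RPKM in DLAs. It was lower in ULAs in each brain, yet the ULA library of brain 3 was above the DLA libraries of brains 1 and 2. The difference was −0.23 ± 0.13 with an interval from −0.52 to 0.05 (adjusted p = 0.389). Cry2 was at 47.2, 46.99 and 35.83 RPKM in ULAs and at 44.19, 49.26 and 29.35 RPKM in DLAs. Brain 3 was the lowest in both layers, and the layer difference was 0.10 ± 0.11 (interval −0.14 to 0.34, adjusted p = 0.682). Cry2 shares 149 bases, 3.41% of its mRNA, with a row on the opposite strand (D930015M05Rik), and the library kit does not mark the strand.

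Nr1d1 and Nr1d2 encode the REV-ERB receptors, which repress Arntl. Nr1d1 was at 121.09, 153.37 and 92.35 RPKM in ULAs and at 158.8, 222.38 and 80.38 RPKM in DLAs. DLAs were higher in brains 1 and 2 and lower in brain 3, and the spread was wider in DLAs (154 ± 71.1 RPKM) than in ULAs (122 ± 30.5 RPKM). The layer difference was −0.24 ± 0.14 with an interval from −0.54 to 0.06 (adjusted p = 0.409). Nr1d2 was at 14.7, 13.6 and 9.43 RPKM in ULAs and at 13.15, 9.43 and 9 RPKM in DLAs. ULAs were above DLAs in each brain, by 0.15, 0.49 and 0.06 on the log2 scale in brains 1, 2 and 3, and the difference was 0.23 ± 0.13 (interval −0.05 to 0.52, adjusted p = 0.400).

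Dbp encodes a PAR bZIP transcription factor that binds D-boxes and carries the clock's rhythm to output genes. It was at 132.56, 80.66 and 63.05 RPKM in ULAs and at 165.05, 113.23 and 61.57 RPKM in DLAs. As with Nr1d1, DLAs were higher in brains 1 and 2 but not in brain 3. The means were 92.1 ± 36.1 RPKM in ULAs and 113 ± 51.7 RPKM in DLAs, and the difference was −0.25 ± 0.12 with an interval from −0.51 to 0.00 (adjusted p = 0.307). Dbp shares 539 bases, 32.1% of its mRNA, with Sphk2 on the opposite strand, and reads from the 2 genes cannot be told apart there. Sphk2 was at 23.73, 18.23 and 18.52 RPKM in ULAs and at 27.82, 24.74 and 16.22 RPKM in DLAs.

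The layer result of Dbp and Nr1d1 depended on brain 3. The difference of Dbp was −0.31, −0.48 and 0.03 in brains 1, 2 and 3, and that of Nr1d1 was −0.39, −0.53 and 0.20. Without brain 3, Dbp (−0.40 ± 0.12, adjusted p = 0.0317) and Nr1d1 (−0.46 ± 0.12, adjusted p = 0.0109) were both called lower in ULAs. In that fit 8.04% of all rows were called, and 2 of the 10 clock genes. Bhlhe40, an E-box-binding repressor that is also a clock target, had the same pattern, with 81, 105.39 and 72.95 RPKM in ULAs and 108.76, 129.48 and 63.26 RPKM in DLAs, and −0.36 without brain 3 (adjusted p = 0.0581). With 1 library for each layer of each brain, whether the layer difference itself differs between brains could not be tested. Brain 3 also had the highest summed oligodendrocyte markers in both layers and, in DLAs, the highest summed blood markers, and their part in this result was not tested.

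**Figure D2:**
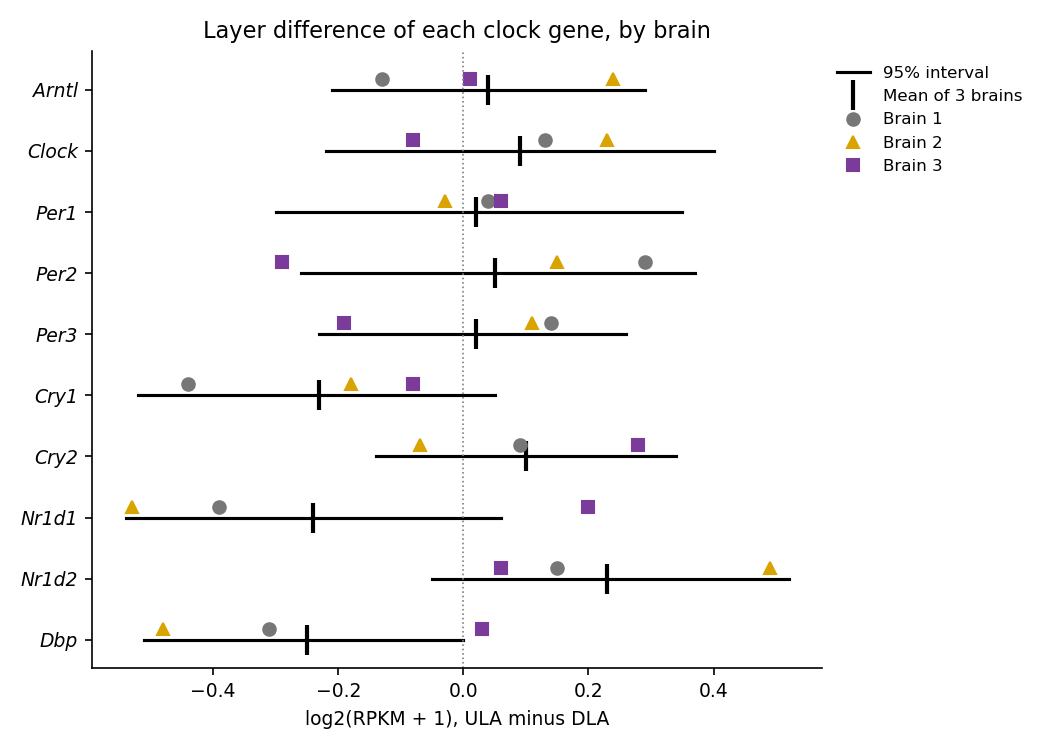
Difference in log2(RPKM + 1), ULA minus DLA (x axis), for each clock gene (y axis), with 1 symbol for each of 3 brains, a tick for the fitted mean and a bar for its 95% interval from limma. The interval of each gene reaches 0, and for Nr1d1 and Dbp brains 1 and 2 lie to the left of 0 and brain 3 to the right of it.

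The second comparison was between the brains. Dbp and Nr1d1 passed it, 2 of the 10 clock genes, where 2.85% of all rows did. The test was the moderated F of the 2 brain terms in the same limma fit, adjusted over all rows. At an unadjusted p under 0.05 the number was 6 of 10, where 16.1% of all rows were under it. The largest difference among the 3 brains had a median of 0.53 over the clock genes and of 0.25 over all rows, on the log2(RPKM + 1) scale. It was larger than the layer difference for each of the 10 genes, as it was for 71.4% of all rows. Each brain is 1 animal, so the test compares these 3 animals, and the animal, its sort and its library preparation cannot be told apart.

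Dbp was highest in brain 1 and lowest in brain 3 in both layers. The highest brain was 2.10-fold over the lowest in ULAs and 2.68-fold in DLAs. On the log2 scale brain 2 minus brain 1 was −0.62 and brain 3 minus brain 1 was −1.23, with an SE of 0.14 for each (adjusted p = 0.00428, rank 70 of 13999 rows by p). Nr1d1 had another order, highest in brain 2 and lowest in brain 3 in both layers. The fold between them was 1.66 in ULAs and 2.77 in DLAs. Brain 3 minus brain 2 was −1.09 ± 0.17 and brain 3 minus brain 1 was −0.68 ± 0.17 (adjusted p = 0.0161). Both genes passed the brain test with any 1 of the 3 brains left out (adjusted p at most 0.0304 for Dbp and 0.0409 for Nr1d1). Both calls were lost with no filter on low values and with the layer left out of the model, in which 0 and 48 of all rows passed, and that of Nr1d1 also without the trend in limma (adjusted p = 0.0639).

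The other clock genes did not pass the brain test, and their values are given without a direction being claimed. Brain 3 minus brain 1 was 0.59 ± 0.14 for Arntl (adjusted p = 0.0823), 0.33 for Clock and 0.32 for Cry1. It was −0.30 for Per1, −0.33 for Per2, −0.48 for Cry2 (adjusted p = 0.0841) and −0.55 for Nr1d2, and −0.01 for Per3. Arntl was called without brain 2 (adjusted p = 0.0409) and without brain 3 (0.0191), but not without brain 1 (0.989). The order of the 3 brains was the same in ULAs and DLAs for Per1, Nr1d1, Nr1d2 and Dbp, that is, for 4 of 10 genes, against 24.1% of all rows.

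The ratio of Dbp to Arntl, genes whose mRNAs peak at opposite times of day in many tissues, is given as a description. In ULAs it was 6.90, 2.55 and 2.04 in brains 1, 2 and 3. In DLAs it was 7.80, 4.25 and 2. It was highest in brain 1 and lowest in brain 3 in both layers.

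**Figure D3:**
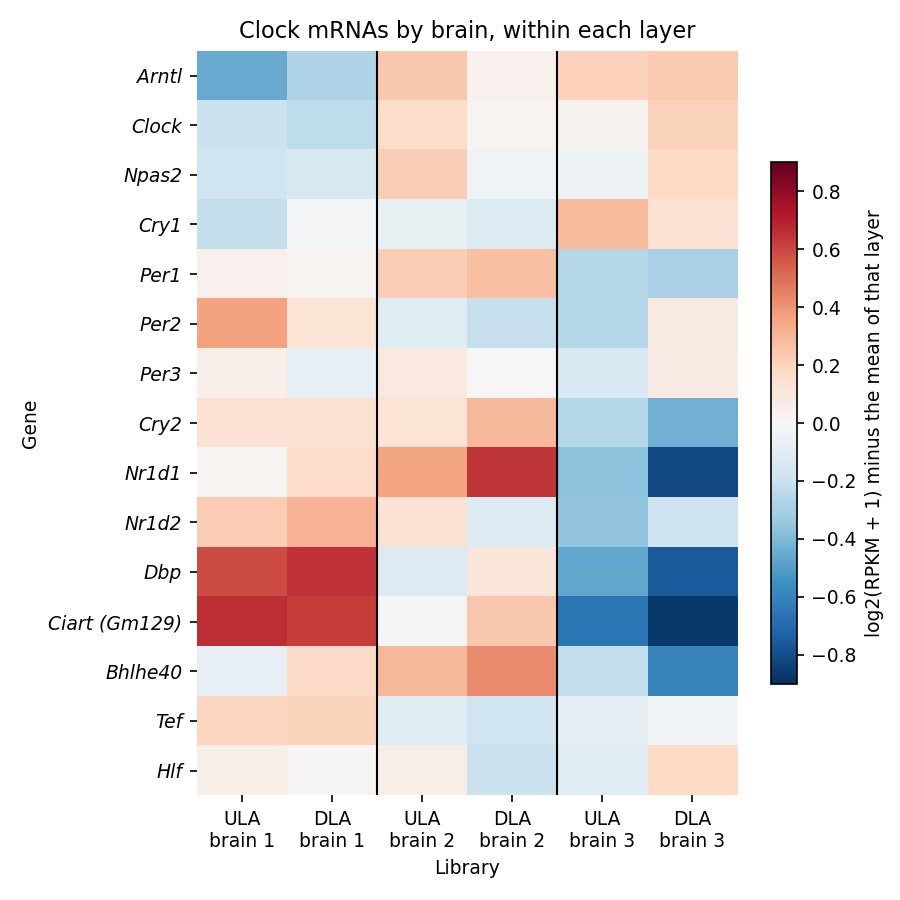
Deviation of each library (x axis) from the mean of its own layer in log2(RPKM + 1), as colour from blue (lower) to red (higher), for the 10 clock genes and for Npas2, Ciart, Bhlhe40, Tef and Hlf (y axis). Dbp was at 0.59 and 0.65 in the ULAs and DLAs of brain 1 and at −0.47 and −0.76 in those of brain 3, and Arntl was at −0.45 and −0.28 in brain 1 and at 0.21 and 0.24 in brain 3.

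Ciart, listed in the table under its earlier symbol Gm129, encodes a repressor of ARNTL and CLOCK and came nearest to Dbp among the other clock genes. Its ULA libraries held 21.45, 12.95 and 8.02 RPKM and its DLA libraries 20.95, 15.93 and 6.83 RPKM. Brain 1 was the highest and brain 3 the lowest in both layers, with brain 3 minus brain 1 at −1.40 ± 0.16 on the log2 scale (adjusted p = 0.00362 for the brains), and its layer difference was −0.01 ± 0.13 (adjusted p = 0.970). The brain call was lost with no filter (adjusted p = 0.35).

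The promoters of the clock genes that passed the brain test, Dbp and Nr1d1, and of Ciart are shown to set these mRNAs beside their sequence. Per1, a target of ARNTL and CLOCK, and Arntl itself are shown for comparison, each by the window that held a motif. Each window is from RefSeq on GRCm38.p6, runs 5′ to 3′ on the strand of the gene, and holds 250 bases before and 50 bases from the start of transcription. The windows lie at chr7:45704997-45705296 (plus strand) for Dbp, chr11:98775328-98775627 (minus strand) for Nr1d1, chr3:95882179-95882478 (minus strand) for Ciart, chr11:69098699-69098998 (plus strand) for Per1 and chr7:113207261-113207560 (plus strand) for Arntl. Capitals mark the E-box CACGTG, the E-prime box (CACGTT, or AACGTG on the other strand), the D-box (TTATGNAA, or TTNCATAA) and the core of the ROR element (TAGGTCA, or TGACCTA).
Dbp: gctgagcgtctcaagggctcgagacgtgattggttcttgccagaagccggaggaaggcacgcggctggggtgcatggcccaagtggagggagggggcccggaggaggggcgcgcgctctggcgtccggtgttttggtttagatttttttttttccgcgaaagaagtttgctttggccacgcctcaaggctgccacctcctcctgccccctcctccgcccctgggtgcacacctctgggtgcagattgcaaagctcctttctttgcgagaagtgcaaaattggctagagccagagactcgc
Nr1d1: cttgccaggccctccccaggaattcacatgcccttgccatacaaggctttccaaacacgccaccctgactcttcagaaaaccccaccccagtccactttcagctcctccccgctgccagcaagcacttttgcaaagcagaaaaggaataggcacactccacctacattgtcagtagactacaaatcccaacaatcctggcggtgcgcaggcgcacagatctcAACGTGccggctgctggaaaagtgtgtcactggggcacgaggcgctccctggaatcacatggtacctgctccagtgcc
Ciart: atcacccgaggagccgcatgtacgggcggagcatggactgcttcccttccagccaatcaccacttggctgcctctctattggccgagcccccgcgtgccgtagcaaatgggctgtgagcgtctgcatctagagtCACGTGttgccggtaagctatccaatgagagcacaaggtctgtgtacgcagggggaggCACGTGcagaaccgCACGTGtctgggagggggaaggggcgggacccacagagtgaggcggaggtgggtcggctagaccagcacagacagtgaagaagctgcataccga
Per1: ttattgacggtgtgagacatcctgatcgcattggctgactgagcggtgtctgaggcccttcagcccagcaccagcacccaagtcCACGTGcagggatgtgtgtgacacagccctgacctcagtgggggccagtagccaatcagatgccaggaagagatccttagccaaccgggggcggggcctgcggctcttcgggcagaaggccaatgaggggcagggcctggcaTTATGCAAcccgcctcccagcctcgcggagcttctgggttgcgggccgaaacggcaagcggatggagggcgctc
Arntl: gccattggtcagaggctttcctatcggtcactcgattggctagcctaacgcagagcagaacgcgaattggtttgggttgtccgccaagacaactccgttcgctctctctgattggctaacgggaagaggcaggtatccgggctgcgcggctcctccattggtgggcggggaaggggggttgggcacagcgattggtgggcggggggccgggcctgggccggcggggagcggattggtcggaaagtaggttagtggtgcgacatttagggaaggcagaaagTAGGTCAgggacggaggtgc
The Ciart window held 3 E-boxes, at −116, −58 and −44 from the start. That of Nr1d1 held 1 E-prime box at −28, that of Per1 an E-box at −166 and a D-box at −24, and that of Arntl a ROR core at 30. The other window of Per1 and the other window of Arntl held none. The Dbp window held none of these letters, and sequence outside it was not searched. Of all 32851 RefSeq promoter windows of 300 bases, 7.15% held the E-box, 4.68% the E-prime box, 3.38% the D-box and 2.61% the ROR core. Windows were given for 9 of the 10 clock genes (13 windows), and 6 of these windows held at least 1 of the 4 motifs. The share of all windows with at least 1 of the 4 was not computed, so this count has no background beside it. Cry1 had an E-box at −60 and an E-prime box at −79, Per3 had D-boxes at −205 and −158, and Cry2 had an E-prime box at −166. A match of letters is a description and not a binding site.

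The table itself is on mm9, on which Dbp lies at chr7:52960617-52965573 on the plus strand (4 exons, mRNA of 1678 bases). Nr1d1 lies at chr11:98629249-98636556 on the minus strand (8 exons, 2627 bases), and Arntl at chr7:120350979-120457640 on the plus strand (20 exons, 2908 bases). RPKM values are over the exons of each row, so no value is from an intron or a promoter.

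**Figure D4:**
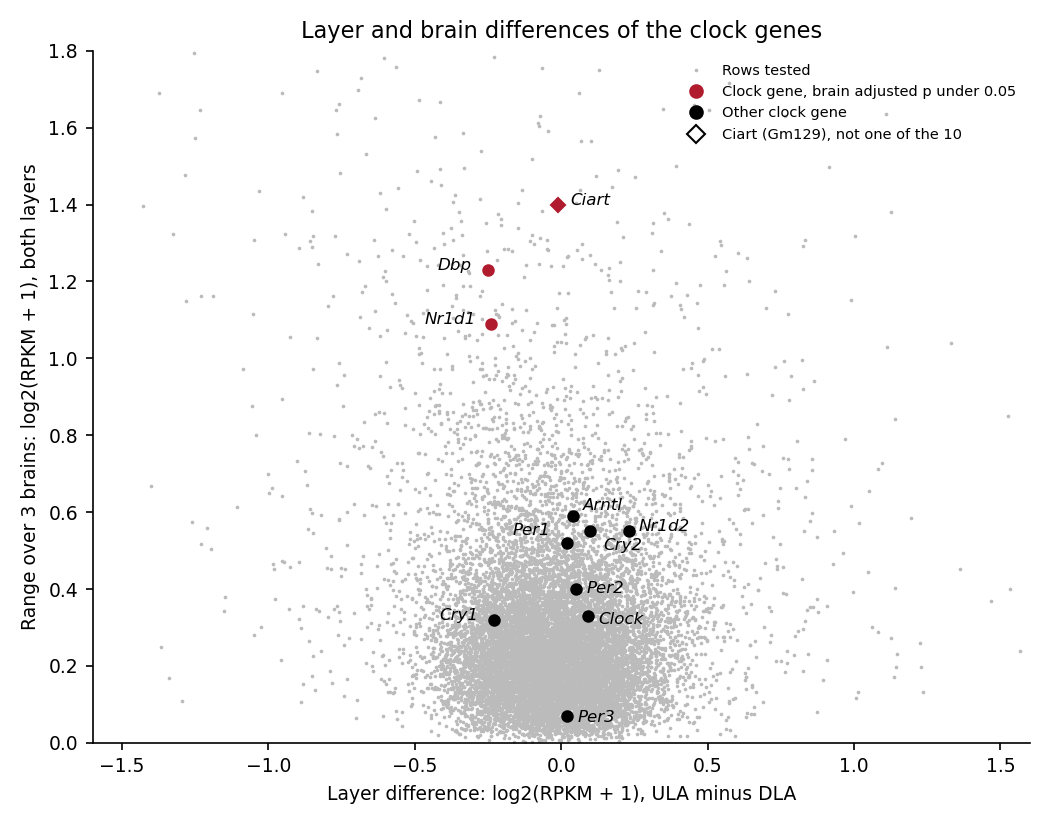
Layer difference in log2(RPKM + 1), ULA minus DLA (x axis), against the largest difference among the 3 brains in the mean of both layers (y axis), with the tested rows in grey (54 lie outside the axes), the clock genes as circles and Ciart as a diamond, red where the brain test was passed. Dbp (1.23), Nr1d1 (1.09) and Ciart (1.40) lie above the other clock genes, which reach 0.59, and no clock gene lies further than 0.25 from 0 on the x axis.

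The genes that act beside these 10 were taken from 3 lists. There were 8 tested clock transcription factors, and 4 others were below the filter. Of the 8, 0 were called between the layers by limma (0 at an unadjusted p under 0.05). Between the brains 1 was called, Ciart, and 3 had an unadjusted p under 0.05. Of all rows, 1.63% were called between the layers and 2.85% between the brains. The shares at an unadjusted p under 0.05 were 16.4% and 16.1%. Npas2, which can stand in for CLOCK, was at 12.59, 16.96 and 13.88 RPKM in ULAs and at 14.85, 16.1 and 18.85 RPKM in DLAs, with a layer difference of −0.19 ± 0.13 (adjusted p = 0.490). Bhlhe40 had a layer difference of −0.17 ± 0.13 (adjusted p = 0.535). Its order of brains was that of Nr1d1 in both layers, with brain 3 minus brain 2 at −0.77 ± 0.15 (adjusted p = 0.0578 for the brains, or 0.00171, 0.128 and 0.166 without brains 1, 2 and 3). Its relative Bhlhe41 was near the filter, at 0.71 to 1.46 RPKM in ULAs and 0.89 to 2.06 RPKM in DLAs, and was lower in ULAs in each brain (−0.39 ± 0.18, adjusted p = 0.312).

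Tef and Hlf are the other PAR bZIP factors, which bind the same D-boxes as DBP, and their levels did not have the spread of Dbp. Tef was at 41.84 to 51.86 RPKM in ULAs and at 37.77 to 49.61 RPKM in DLAs, with a layer difference of 0.07 ± 0.10. Hlf was at 17.49 to 19.65 RPKM in ULAs and at 17.37 to 22.85 RPKM in DLAs, with a difference of −0.08 ± 0.13. Over the 3 brains the largest difference was 0.34 for Tef and 0.11 for Hlf, beside 1.23 for Dbp. Nfil3, which represses through D-boxes, was below the filter, at 0.07 to 0.37 RPKM or 4 to 22 reads.

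Of 11 kinases and ubiquitin ligases of the clock, 0 were called between the layers by limma (0 at an unadjusted p under 0.05). Between the brains 2 were called (2 at an unadjusted p under 0.05). Csnk1d and Csnk1e, the kinases that phosphorylate PER proteins, had layer differences of 0.09 ± 0.11 and −0.13 ± 0.12 and were not called. Fbxl21, an F-box protein that binds CRY proteins, was at 2.97, 2.73 and 6.11 RPKM in ULAs and at 2.46, 2.22 and 5.23 RPKM in DLAs. It was highest in brain 3 (adjusted p = 0.0230 for the brains, or 0.916 without brain 3). Gsk3a was at 4.77, 2.05 and 5.32 RPKM in ULAs and at 7.09, 1.73 and 7.60 RPKM in DLAs (adjusted p = 0.00823, or 0.725 without brain 2), lowest in brain 2, and shares 506 and 436 bases with 2 rows on the opposite strand. Both brain calls were also lost with no filter (adjusted p = 0.374 for Fbxl21 and 0.379 for Gsk3a) and with the layer left out (0.113 and 0.064). Neither had the order of brains of Dbp.

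Of 6 genes that follow the clock in many tissues, 1 was called, Tsc22d3 (also called Gilz), which is induced by glucocorticoids. It was at 126.75, 138.62 and 258.02 RPKM in ULAs and at 242.26, 225.46 and 357.94 RPKM in DLAs. It was lower in ULAs in each brain (−0.70 ± 0.11, adjusted p = 0.0114, or 0.0956 without brain 1) and highest in brain 3 in both layers (brain 3 minus brain 1 at 0.79 ± 0.13, adjusted p = 0.0143, or 0.984 without brain 3). The layer call was also lost with no replicate block (adjusted p = 0.448), with no filter (0.339) and without the trend (0.0581), and the brain call with no filter (0.386), without the trend (0.0645) and with the layer left out (0.565). Brain 3 was the highest for Tsc22d3 and the lowest for Dbp, Nr1d1 and Ciart. Of 6 tested glucocorticoid response genes, Tsc22d3 among them, 1 was called between the brains, where 2.85% of all rows were. At an unadjusted p under 0.05 in limma the number was 6 of 6, where 16.1% of all rows were under it. The list had no common direction. Brain 3 minus brain 1 was 0.79 for Tsc22d3, 0.50 for Ddit4 and 0.44 for Pdk4. It was −0.30 for Sgk1, −0.42 for Errfi1 and −0.58 for Zbtb16, and of these 6 only Tsc22d3 was called. The summed level of the list was 174.28 to 313.84 RPKM in ULAs and 272.76 to 412.71 RPKM in DLAs, most of it from Tsc22d3. Of 8 tested immediate early genes, 2 were called between the brains, Jun and Dusp1, both highest in brain 2 in both layers. Between the brains 4 had an unadjusted p under 0.05 in limma. Between the layers 0 were called (0 at an unadjusted p under 0.05).

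Cell makeup was set beside the brain result. Of 10 astrocyte markers, 0 were called between the brains by limma (2 at an unadjusted p under 0.05), and their largest difference among the brains ranged from 0.03 for Aldh1l1 to 0.46 for Gfap on the log2 scale, with a median of 0.12. Of 8 oligodendrocyte markers, 5 were called between the brains and 7 between the layers, all 7 lower in ULAs. Of all rows, 2.85% were called between the brains and 1.63% between the layers. The part of the oligodendrocyte markers in the differences between the brains was not tested.

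Across all rows with a RefSeq record, those whose 6 log2(RPKM + 1) values, centred on their own mean, lay nearest to Dbp were Prr18, Miip and Ciart, at root-mean-square distances of 0.145, 0.162 and 0.166 over 6 libraries, where the median row was at 0.557. Miip was at 25.55, 13.34 and 14.04 RPKM in ULAs and at 30.29, 20.28 and 13.65 RPKM in DLAs. Nearest to Arntl were Khdrbs3, Fam161b and Spryd7, at 0.0664, 0.0842 and 0.0845, where the median row was at 0.319. Khdrbs3 was at 3.56, 5.71 and 5.49 RPKM in ULAs and at 3.95, 5.26 and 6.16 RPKM in DLAs. Like Arntl, it was lowest in brain 1 in both layers.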

How the data were processed

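Astrocyte RNA of 6 samples was amplified with SMART-Seq v4, made into Nextera XT libraries and read as single 36-base reads. The authors deposited RPKM, cut to 2 decimals, for 43383 rows with their mRNA lengths on mm9. The submitters' processing notes name bcl2fastq 1.8.4 and CASAVA 1.8.2, and the aligner and the counting program are not given in the sources used here. Depth was read from the steps of RPKM in rows of at most 500 bases, in which at least 99.95% of the values came out as whole reads. It was 24.4, 25.6 and 26.7 M reads in ULAs and 26.6, 19.7 and 29.6 M in DLAs of brains 1 to 3. Reads are not independent molecules, and read numbers give counting precision only.

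Groups came from the labels. Replicate numbers were taken as brains. All 177 entries of the study's supplementary lists had the same 6 values under the same brain number. Deviations of same-numbered libraries from their layer means correlated (r across rows 0.42, 0.33 and 0.34, against −0.20 to −0.16 for other pairs). The 13999 rows whose RPKM averaged 1 or more were fitted as log2(RPKM + 1) in limma 3.58.1 (R 4.3.3; intensity trend, brain and layer terms, 2-sided tests, Benjamini-Hochberg over all rows). The code was tested on simulated data. Exact permutation of 3 against 3 libraries cannot give a p under 0.1, or under 0.25 in pairs, so limma was the only test of single genes. A fold on the RPKM scale and a difference on the log2 scale are named where given.

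The clock genes and the gene lists were chosen with earlier results of these data known. The genes named include the 10 clock genes and every gene called in the 3 other clock lists. Npas2, Bhlhe40, Bhlhe41, Nfil3, Tef, Hlf, Ciart, Csnk1d and Csnk1e are also named, as are the 3 RefSeq rows nearest to Dbp and to Arntl. From other lists there are at most 3 examples, except that all 6 tested glucocorticoid response genes are named. A gene of these lists is not reported here. Sphk2, D930015M05Rik and the 4 motifs were added after values had been seen. Promoters were matched by symbol, for 9 of 10 clock genes. Coordinates were not converted between mm9 and GRCm38. Figures were drawn with matplotlib 3.10.9. Alternatives were a fit without the brain, a fit of the brain alone, no filter, a filter at a mean RPKM of 5, a pseudocount of 0.1, quantile normalization, median centring, no trend, a loess correction for mRNA length (span 0.5) and each brain left out.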

Additional observations from a re-analysis of the deposited data

How the results depend on the processing

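The pairing by brain mattered to the counts. With no replicate block, 23 rows were higher and 18 lower in ULAs, against 100 and 128 in the paired fit, and 0 clock genes were called. With no filter on low RPKM, 27963 rows were tested. Of these, 0 were called in either direction between the layers and 0 between the brains. The number of clock genes called between the brains was also 0. Yet 2799 rows for the layers and 2698 for the brains had an unadjusted p under 0.05. These held 0 and 5 clock genes. Without the trend in limma, 65 rows were higher and 79 lower in ULAs, and 1 clock gene, Dbp, was called between the brains. The length correction gave 77 rows higher and 77 lower in ULAs. With the brain alone in the model, 48 rows and 0 clock genes were called. With a mean RPKM of at least 5, Clock and Per1 were not tested. In that fit 413 of 8911 rows were called between the brains. Among them were 3 clock genes, Arntl included (adjusted p = 0.0489). Quantile normalization moved the layer split to 138 higher and 103 lower. Leaving out each brain gave 0 to 2 clock genes, 96 to 431 higher and 121 to 695 lower rows between the layers, and 2 to 3 clock genes and 260 to 706 rows between the brains. Over the 10 alternatives the adjusted p for the brains was 0.000317 to 0.35 for Dbp (under 0.05 in 8), 6.34e-07 to 0.406 for Nr1d1 (in 7) and 0.000499 to 0.35 for Ciart (in 9). Small layer differences changed sign. The length correction gave −0.01 for Clock, −0.04 for Per1, −0.03 for Per2, −0.06 for Per3 and 0.09 for Ciart (Gm129), and quantile normalization 0.03 for Ciart. With each brain left out, the layer difference was −0.06 to 0.12 for Arntl, −0.07 to 0.22 for Per2, −0.04 to 0.12 for Per3, −0.12 to 0.12 for Ciart and −0.20 to 0.07 for Hlf. The causes were not tested. Among the clock genes, layer differences of Dbp (−0.40 to −0.14), Nr1d1 (−0.46 to −0.10) and Cry1 (−0.31 to −0.13) kept their sign. So did those of Cry2 (0.01 to 0.21) and Nr1d2 (0.11 to 0.32). Depth limits Per1 most among the clock genes (196 to 308 reads).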
